A study of Mus musculus with 2 samples.

Results

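Chemokine ligand transcripts were examined in single spinal microglia. The 9 genes were Ccl2, Ccl3, Ccl4, Ccl7, Ccl9, Ccl12, Cxcl2, Cxcl10 and Cxcl16, chosen by symbol from the 32285 genes of the files. All 9 were listed, and each had at least 20 UMIs (unique molecular identifiers, which count each captured RNA molecule once) over both libraries. The study asked how raising translation in microglia, by removing the translational repressor 4E-BP1, changes these cells. Droplet-based single-cell RNA-seq, read from the 3′ end of transcripts, was available as 1 control library (Eif4ebp1 fl/fl, called WT in the labels) and 1 4E-BP1–cKO library (Eif4ebp1 fl/fl:TMEM119-CreERT2). Male mice of 8 to 10 weeks were used, and 4-hydroxytamoxifen (4-OHT), which activates the inducible Cre, was given from postnatal day 4 to 9. Cre was driven by Tmem119, a microglial gene. The control genotype carries the floxed alleles without Cre, so Cre expression and loss of 4E-BP1 cannot be told apart. Spinal cords were minced and digested warm with collagenase IV and DNase I, cleared of debris in Percoll, and sorted by the gate CD45lo CD11b hi CX3CR1 hi.

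Chemokines are small secreted proteins that direct the migration of leukocytes through G protein–coupled receptors. CC and CXC chemokines are named for the spacing of their first cysteines. Microglia make several of them on activation, many of these genes are transcribed within a short time of stimulation under NF-kappaB, AP-1 or interferon signaling, and tissue digestion by itself is known to induce some of them.

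Cells needed over 300 genes with a UMI and less than 5% of UMIs from mitochondrial genes, a filter that 1147 of 1216 control and 445 of 474 4E-BP1–cKO barcodes passed. The kept cells held 4803562 and 1734332 UMIs, with medians of 3053 and 2776 per cell, and the libraries shared 0 barcodes. The median share of UMIs from ribosomal protein genes was 2.22% in control and 3.53% in 4E-BP1–cKO cells. At least 3 of 9 microglial markers were detected in 1065 control and 396 4E-BP1–cKO cells, and these cells held 98.6% and 98.4% of the chemokine UMIs. At least 3 markers of monocytes or of neutrophils were found in 0 cells of either library, whereas 12 control and 1 4E-BP1–cKO cells reached this number for oligodendrocytes, and the 12 control cells held 3.23% of that library's chemokine UMIs. Eif4ebp1 itself had 95 UMIs in control (19.8 CPM, UMIs scaled to 1000000 UMIs of the kept cells) and 51 in 4E-BP1–cKO cells (29.4 CPM), a ratio of 1.49 (95% interval, 1.04 to 2.11). The genotyping of the conditional allele targets an internal exon while the libraries read 3′ ends, so this value cannot check the deletion. With 1 library per genotype there was no replicate check and no test. All intervals below are exact, at a level of 95%, and cover counting error only. Those of UMI counts and ratios treat each UMI as independent. The variance of UMIs over cells was 31.1 and 41.2 times the mean for Cxcl2 (control and 4E-BP1–cKO). For Ccl4 it was 53.4 and 77.5 times. The intervals of UMI counts and ratios are thus too narrow for the sampling of cells, and one above 1 does not settle a difference. Fewer cells of a kind and less RNA per cell cannot be told apart in a library total.

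The genes lie in a few places of the mm10 genome (GRCm38). Ccl2, Ccl7 and Ccl12 lie on chromosome 11, at chr11:82035577-82037452, chr11:82045712-82047525 and chr11:82101845-82103399. Ccl9 (chr11:83572917-83578636), Ccl3 (chr11:83647843-83649378) and Ccl4 (chr11:83648624-83664683) lie farther along the same chromosome. The annotated spans of Ccl3 and Ccl4 overlap, and the genes are on opposite strands. Cxcl16 is at chr11:70454389-70459984, and Cxcl2 (chr5:90903899-90905938) and Cxcl10 (chr5:92346638-92348889) are on chromosome 5.

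Promoter sequences from RefSeq (GRCm38.p6) were matched for 5 of the 9 genes, Ccl3, Ccl9, Ccl12, Cxcl2 and Cxcl10. The 250 bases before the start of 3 of them are shown. Ccl3 was detected broadly, and Cxcl2 had most of its UMIs in a few cells. Cxcl10 is known as an interferon-inducible gene, and its response to interferon was not tested here. The bases are written 5′ to 3′ on the strand of the gene, and capitals mark motif matches on either strand.
Ccl3 (chr11:83649379-83649628, minus strand): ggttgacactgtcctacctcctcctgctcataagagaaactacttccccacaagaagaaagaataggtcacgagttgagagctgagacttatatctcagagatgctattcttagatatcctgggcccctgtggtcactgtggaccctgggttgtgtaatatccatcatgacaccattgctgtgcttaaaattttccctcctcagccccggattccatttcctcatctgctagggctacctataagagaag
Cxcl2 (chr5:90903649-90903898, plus strand): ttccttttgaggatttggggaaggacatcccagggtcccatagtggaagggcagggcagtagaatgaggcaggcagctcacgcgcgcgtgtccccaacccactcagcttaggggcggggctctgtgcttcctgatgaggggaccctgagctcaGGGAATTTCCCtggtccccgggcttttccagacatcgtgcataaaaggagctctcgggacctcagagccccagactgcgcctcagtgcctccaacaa
Cxcl10 (chr5:92348890-92349139, minus strand): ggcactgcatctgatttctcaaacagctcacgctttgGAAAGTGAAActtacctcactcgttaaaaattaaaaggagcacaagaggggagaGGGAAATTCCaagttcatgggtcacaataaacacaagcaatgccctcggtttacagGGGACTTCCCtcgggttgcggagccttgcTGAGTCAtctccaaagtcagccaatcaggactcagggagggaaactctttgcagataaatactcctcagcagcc
The motifs searched were the AP-1 heptamer TGANTCA, the degenerate NF-kappaB site, the TATA box TATAAA and the interferon-stimulated response element core GAAANNGAAA. In the Cxcl2 window the capitals are overlapping NF-kappaB matches on both strands, which begin 97 and 96 bases before the start. In the Cxcl10 window they are the response element core 213 bases before the start, NF-kappaB matches 159 and 103 bases before it, and an AP-1 match 74 bases before it. The Ccl3 window held 0 matches to these letters. Of the matched windows not shown, that of Ccl9 held an AP-1 match 53 bases before the start and an NF-kappaB match 35 bases before it. It also held 3 TATA box matches, and the Ccl12 window held a TATA box match 31 bases before the start. Of 32851 promoter windows of the same length, 6.75% held the AP-1 heptamer, 3.9% the NF-kappaB site, 12.4% the TATA box and 2.98% the response element core. A match describes letters and not a bound site.

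Ccl4 and Ccl3, inflammatory CC chemokines that attract macrophages and T cells, gave most of the chemokine RNA. The 9 genes together had 23979 UMIs in control cells, 0.499% of all UMIs, and 14056 in 4E-BP1–cKO cells, 0.810% of all UMIs. Ccl3 and Ccl4 accounted for 81.0% of these in the control and 82.1% in the 4E-BP1–cKO library. At least 1 chemokine UMI was present in 1097 control (95.6%) and 406 4E-BP1–cKO cells (91.2%). Molecule counts from 3′ ends do not scale with transcript length, so the order of CPM between genes was read without a length correction. In control cells it ran Ccl4, Ccl3, Ccl2, Cxcl2, Ccl12, Cxcl10, Cxcl16, Ccl9 and Ccl7. The intervals of Ccl12, Cxcl10 and Cxcl16 overlapped, so that their order was not resolved at this depth. In the 4E-BP1–cKO library the intervals of Ccl2 and Cxcl2 overlapped as well, and so did those of Ccl7 and Ccl9.

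**Figure D1:**
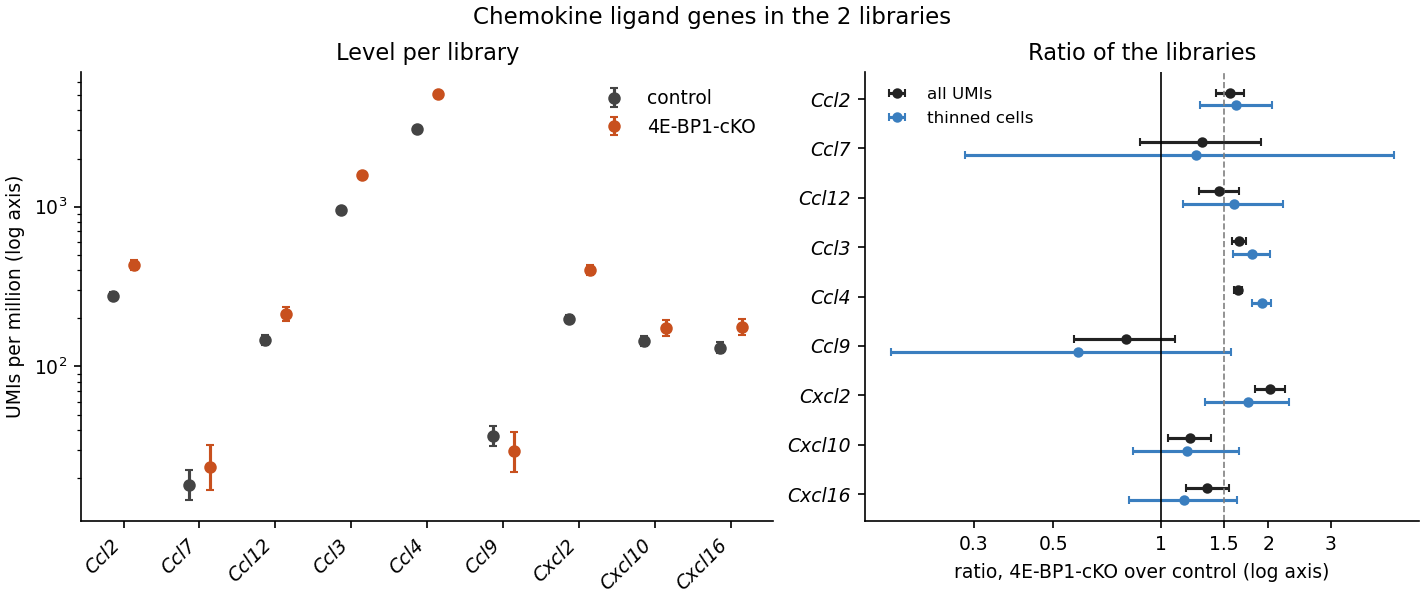
Left, CPM of each gene in the control (gray) and 4E-BP1–cKO (orange) library on a log axis, with exact Poisson intervals. Right, the ratio of 4E-BP1–cKO to control on a log axis with its exact 95% interval, for all UMIs (black) and for cells thinned to 872 UMIs (blue); the dashed line is a 1.5-fold ratio. For all UMIs, Ccl2, Ccl3, Ccl4 and Cxcl2 lie past it, and the intervals of Ccl7 and Ccl9 include 1. For thinned cells Ccl12 lies past it as well, and the intervals of Cxcl10 and Cxcl16 also include 1.

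Of the 9 genes, 4 were higher by over 1.5-fold in the 4E-BP1–cKO library (Ccl2, Ccl3, Ccl4 and Cxcl2) and 0 were lower by that much. Among 11784 genes with at least 20 UMIs, 4.32% were higher and 11.3% were lower by over 1.5-fold. The median log2 ratio (4E-BP1–cKO over control, with a pseudocount of 1 CPM) was 0.54 for the chemokine ligands and −0.05 for all genes tested. The count of 4 depended on few cells and on ribosomal share. Without the 10 cells of each library with the most chemokine UMIs, which are a larger portion of the smaller library, the log2 ratio of Ccl3 was 0.57 and that of Ccl4 was 0.52, both under 1.5-fold. With cells under and over a ribosomal share of 3% weighted alike in both libraries, that of Ccl2 was 0.52.

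Among the ligands of CCR2, which recruits monocytes, Ccl2 had 1322 UMIs in control and 746 in 4E-BP1–cKO cells. Its level was 275 CPM (261 to 290) against 430 CPM (400 to 462), a ratio of 1.56 (1.43 to 1.71), and the intervals did not overlap. Ccl12, another CCR2 ligand of the mouse, had 703 and 370 UMIs, or 146 CPM (136 to 158) and 213 CPM (192 to 236). Its ratio of 1.46 (1.28 to 1.66) was above 1 but did not pass 1.5-fold. Ccl7, which acts on CCR2 among other receptors, had the fewest UMIs of the members, 87 and 41. Its levels were 18.1 CPM (14.5 to 22.3) and 23.6 CPM (17.0 to 32.1), and the latter was not resolved from that of Ccl9. The Ccl7 ratio of 1.31 (0.88 to 1.91) was not distinguishable from 1 at this depth.

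Ccl3 had 4606 control and 2756 4E-BP1–cKO UMIs, at 959 CPM (931 to 987) and 1589 CPM (1530 to 1650), a ratio of 1.66 (1.58 to 1.74). Ccl4 had 14806 and 8785 UMIs, at 3082 CPM (3033 to 3132) and 5065 CPM (4960 to 5172), a ratio of 1.64 (1.60 to 1.69). Both members of this neighboring pair thus differed by about the same ratio. Ccl9, a CCR1 ligand, was the only member with a lower level in 4E-BP1–cKO cells, with 177 and 51 UMIs and levels of 36.8 CPM (31.6 to 42.7) and 29.4 CPM (21.9 to 38.7). Its ratio of 0.80 (0.57 to 1.10) had an interval that included 1.

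Among the CXC members, Cxcl2, a neutrophil attractant that signals through CXCR2, had the highest ratio of the 9 over all UMIs, though not in thinned cells (below Ccl4 and Ccl3). It had 953 UMIs in control and 697 in 4E-BP1–cKO cells, at 198 CPM (186 to 211) and 402 CPM (373 to 433), a ratio of 2.03 (1.83 to 2.24). Cxcl10, an interferon-inducible ligand of CXCR3, had 696 and 303 UMIs, at 145 CPM (134 to 156) and 175 CPM (156 to 196), a ratio of 1.21 (1.05 to 1.38). Cxcl16, the ligand of CXCR6 that is made as a transmembrane protein and shed by ADAM10, had 629 and 307 UMIs, at 131 CPM (121 to 142) and 177 CPM (158 to 198), a ratio of 1.35 (1.18 to 1.55). Neither Cxcl10 nor Cxcl16 passed 1.5-fold.

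For the 4 genes past 1.5-fold the share of cells with a UMI differed less between the libraries than the level did, whereas for Ccl7 and Ccl9 both differed alike. This contrast depends in part on the level of a gene. Among control cells with Ccl7 64.9% held 1 UMI of it, and 67.5% of those with Ccl9 did, so their share follows the count. A share as high as that of Ccl4 has little room to rise. The share was 82.3% (80.0 to 84.5%) in control and 78.9% (74.8 to 82.6%) in 4E-BP1–cKO cells for Ccl4, and 62.0% (59.1 to 64.8%) and 64.9% (60.3 to 69.4%) for Ccl3. Ccl2 was detected in 31.6% and 35.7% of cells, Cxcl16 in 28.2% and 34.6%, Ccl12 in 24.6% and 28.3%, Cxcl2 in 16.7% and 19.6%, and Cxcl10 in 15.4% and 16.2%. Ccl9 was found in 9.94% and 7.87% of cells and Ccl7 in 3.23% and 4.27%. Cells with Ccl4 held a median of 5 Ccl4 UMIs in control and 8 in 4E-BP1–cKO cells, and for Cxcl2 the medians were 1 and 2. The gate left no other cell type in numbers that could give a background share, so UMIs from free RNA could not be told from those of the cell in cells with 1 UMI. Single UMIs made up 17.9% of control cells with Ccl4, 57.1% of those with Cxcl2 and 67.5% of those with Ccl9.

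Because the 4E-BP1–cKO cells were shallower, each cell was also thinned to 872 UMIs. Cells with fewer UMIs were set aside, 89 of 1147 in control and 70 of 445 in 4E-BP1–cKO. They were a larger part of the 4E-BP1–cKO library, so thinned shares differ from full ones in the cells counted as well as in depth. The Ccl4 share was then 62.2% (59.2 to 65.1%) in control and 68.3% (63.3 to 73.0%) in 4E-BP1–cKO cells, with overlapping intervals, so that its direction turned from lower by 3.43 points at full depth to higher by 6.07 points. The Ccl3 share was 36.6% (33.7 to 39.6%) and 46.7% (41.5 to 51.9%) after thinning, without overlap of the intervals. Ccl2 was found in 13.4% and 17.6% of thinned cells, Ccl12 in 8.88% and 13.1%, Cxcl2 in 7.94% and 10.7%, Cxcl16 in 9.64% and 12.3% and Cxcl10 in 7.28% and 8.53%. The intervals of these genes overlapped between the libraries. The ratio of UMIs in thinned cells, where each cell weighs the same, was 1.92 (1.80 to 2.04) for Ccl4, 1.80 (1.60 to 2.02) for Ccl3, 1.75 (1.33 to 2.29) for Cxcl2, 1.63 (1.29 to 2.05) for Ccl2 and 1.60 (1.16 to 2.20) for Ccl12. For Cxcl10, Cxcl16, Ccl7 and Ccl9 the interval included 1.

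**Figure D2:**
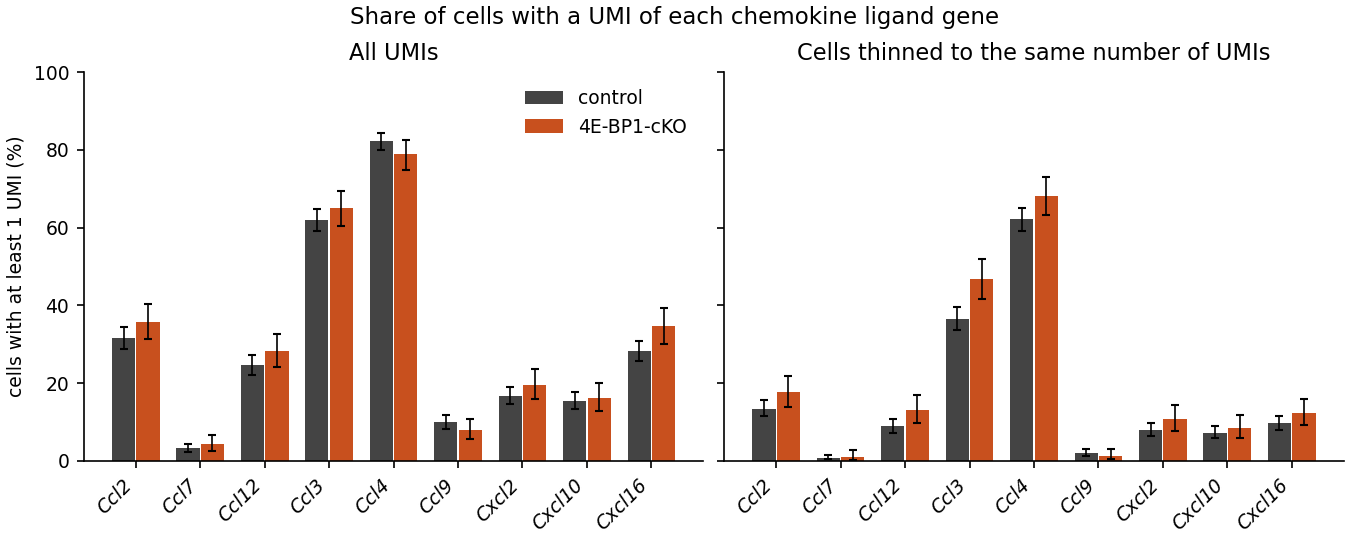
Percentage of cells with at least 1 UMI of each gene in the control (gray) and 4E-BP1–cKO (orange) library, with exact binomial intervals, from all UMIs (left) and after thinning each cell to 872 UMIs (right). Ccl4 is lower in 4E-BP1–cKO cells on the left (82.3% and 78.9%) and higher on the right (62.2% and 68.3%).

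The members differed in how their UMIs were spread over cells. At full depth Cxcl2 was the most uneven of the genes found in over 5% of cells. In the control library 12 of 1147 cells held at least 50% of its UMIs, and in the 4E-BP1–cKO library 6 of 445 cells did. The 5% of cells with the most Cxcl2 UMIs held 83.3% of them in control and 83.4% in 4E-BP1–cKO cells, and single cells reached 98 and 116 Cxcl2 UMIs. For each other gene the 5% of cells with the most UMIs of that gene were taken. They held 77.6% and 72.9% of the UMIs for Cxcl10, 58.1% and 58.4% for Ccl2, and 56.2% and 58.1% for Ccl12. Ccl3 (45.4% and 41.0%), Ccl4 (41.7% and 39.8%) and Cxcl16 (41.0% and 35.5%) were spread more evenly at full depth. Cxcl16 and Cxcl10 thus had about the same level in control cells and a different spread. In thinned cells, again ranked for each gene by its own UMIs, the order changed. The top 5% of control cells held 79.8% of Cxcl10, 78.6% of Cxcl2, 58.8% of Cxcl16, 56.8% of Ccl2, 33.3% of Ccl3 and 30.6% of Ccl4 UMIs. The thinned Cxcl16 value rests on 119 UMIs in 102 cells, a count at which the percentage is high however the UMIs are spread. If UMIs had followed depth alone, Cxcl2 would have been found in 555 control cells, and it was found in 191. Cxcl16, at 428 by depth alone and 324 found, was closer to that number.

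**Figure D3:**
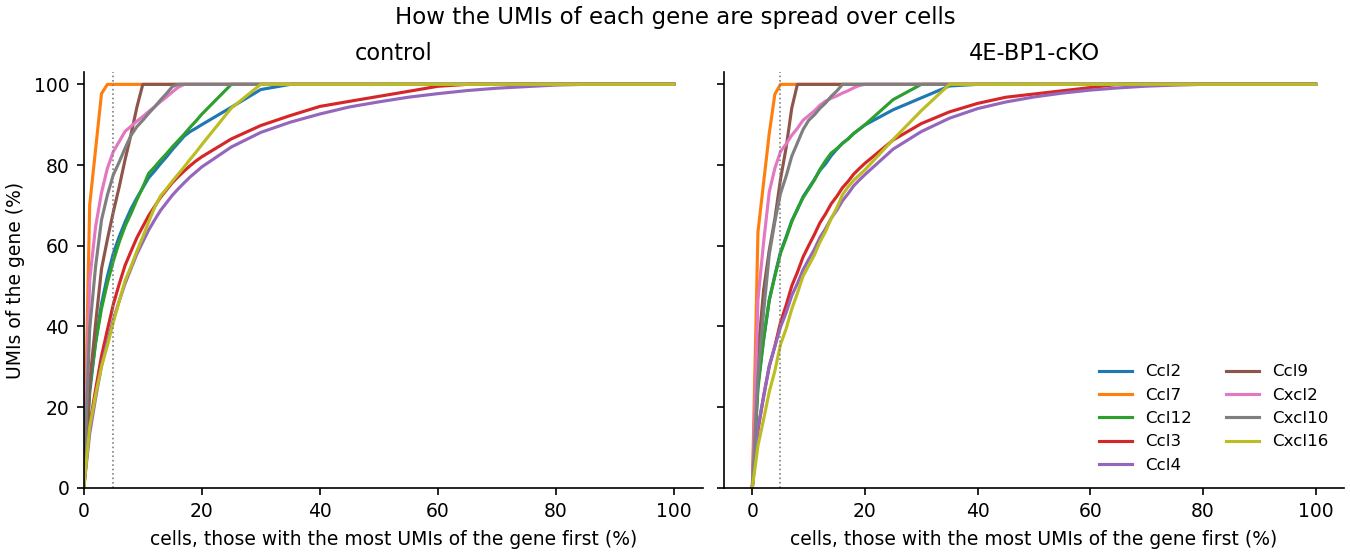
Cumulative percentage of the UMIs of each gene (vertical) against the percentage of cells, ordered from the cell with the most UMIs of that gene (horizontal), in the control (left) and 4E-BP1–cKO (right) library. The dotted line marks 5% of cells, where the Cxcl2 curve stands at 83.3% and 83.4% and the Cxcl16 curve at 41.0% and 35.5%.

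Chemokine RNA took up a sizable part of the transcriptome in a few cells only. The median share of a cell's UMIs was 0.253% in control and 0.435% in 4E-BP1–cKO cells. The highest share of a cell's UMIs given to the 9 genes was 4.14% in control and 9.55% in 4E-BP1–cKO cells. The latter cell had 476 chemokine UMIs of 4983, of which 355 were Ccl4 and 106 were Ccl3, with 0 of Cxcl2 and 0 of Cxcl10. The control cell with the most held 252 Ccl4, 98 Cxcl2 and 30 Ccl3 UMIs. A share over 5% was seen in 3 4E-BP1–cKO cells and in 0 of 1147 control cells, which allows up to 0.262% of control cells by a floor of 3 counts. At full depth 28.3% (25.7 to 31.0%) of control and 35.5% (31.1 to 40.1%) of 4E-BP1–cKO cells had at least 4 of the 9 genes. After thinning these shares were 4.25% (3.12 to 5.65%) and 8.0% (5.46 to 11.2%), with overlapping intervals.

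Ccl3 and Ccl4 had the closest counts per cell of all pairs of members. In thinned cells, 76.7% of control cells with Ccl3 also had Ccl4, and 84.6% of 4E-BP1–cKO cells did. The pair was present in 1.23 times as many control cells and 1.24 times as many 4E-BP1–cKO cells as the product of the shares. The correlation of their log counts over thinned cells was 0.39 over 1058 control cells and 0.58 over 375 4E-BP1–cKO cells, as a description of cells that share a library. Their annotated spans overlap on opposite strands, and the sources used here do not give the strand setting of the counting, so whether reads of one were counted for the other was not tested. Among 4886 genes with at least 200 UMIs, Ccl4 was the gene most like Ccl3, and Ccl3 the gene most like Ccl4. No other gene reached a correlation of 0.2 in both libraries with Ccl3 or Ccl4, and none did with Ccl2, Ccl9, Ccl12, Cxcl2, Cxcl10 or Cxcl16. Thinned cells held few UMIs of the latter genes, such as 24 and 5 of Ccl9 and 119 and 49 of Cxcl16. Such counts limit the correlation, so genes that vary with them could have been missed.

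Other pairs were compared at full depth, as the count of cells with both genes over the product of the shares within depth quartiles. For broadly detected genes this fold has little room above 1, as for Ccl3 with Ccl4 (1.05 and 1.09). Cxcl2 with Cxcl10 was found in 50 control cells against 32.9 by the product, a fold of 1.52, and in 24 4E-BP1–cKO cells, a fold of 1.40. Cxcl2 with Cxcl16 gave 1.46 and 1.31, and Cxcl10 with Cxcl16 gave 1.25 in both libraries. Ccl2 with its neighbor Ccl7 gave 1.51 and 1.41, on 23 and 13 cells, and Ccl2 with Ccl12 gave 1.2 and 1.25. In thinned cells Cxcl2 and Cxcl10 met in 7 control and 3 4E-BP1–cKO cells, close to the 6.11 and 3.41 of the product, so this pairing rests on the deeper counts. The thinned fold differed from the full one for other pairs too. It was 1.85 and 1.02 for Cxcl2 with Cxcl16, 1.08 and 2.04 for Cxcl10 with Cxcl16, and 0.95 and 1.28 for Ccl2 with Ccl12, on 5 to 15 cells each. Ccl4 with Cxcl2 gave 0.98 in control and 1.11 in 4E-BP1–cKO cells at full depth, where Ccl4 leaves the fold little room. In thinned cells with at least 1 UMI of each gene, the fold of Ccl4 with Cxcl2 was 1.01 and 1.10. That of Ccl3 with Cxcl2 was 1.24 and 1.18. Counting only thinned cells with at least 2 UMIs of each gene, Ccl4 with Cxcl2 gave 1.64 (18 cells against 10.9) and 1.52 (15 against 9.88). Ccl3 with Cxcl2 then gave 2.02 (9 cells) and 1.42 (7 cells). Cxcl2 with Cxcl10 met in 2 control and 0 4E-BP1–cKO cells at that cutoff. The folds at this cutoff rest on few cells and carry no interval.

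**Figure D4:**
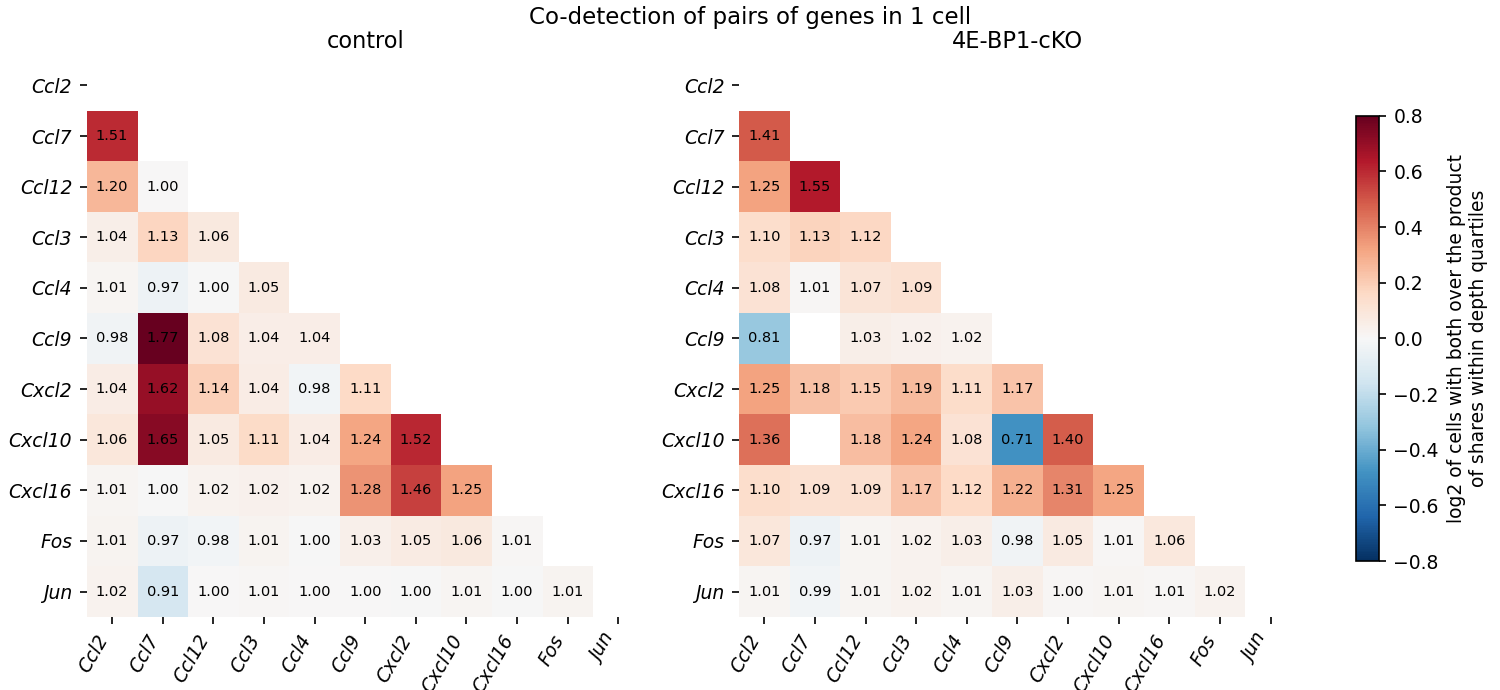
Cells with both genes of a pair over the number given by the product of their shares within depth quartiles, printed in each square and colored by its log2 value, in the control (left) and 4E-BP1–cKO (right) library. Pairs with a product under 5 cells are blank, and Fos and Jun, detected in most cells, stay close to 1 with nearly every member.

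Fos and Jun encode subunits of the AP-1 transcription factor and are immediate early genes that tissue dissociation also induces. Fos was at 2186 CPM in control and 2671 CPM in 4E-BP1–cKO cells, a ratio of 1.22 (1.18 to 1.27), and Jun was at 3961 and 4467 CPM, a ratio of 1.13 (1.10 to 1.16). Thinned cells were grouped by their Fos plus Jun UMIs into 0 to 2, 3 to 4, 5 to 7 and 8 or more. In thinned cells Ccl2 had the largest rise from the lowest to the highest group in both libraries. It had 84.1 UMIs per 1000 control cells in the lowest group and 337 in the highest, 4.00 times as many. In 4E-BP1–cKO cells it had 181 and 474, or 2.62 times as many, although the group with 5 to 7 was lower than the group before it. In full-depth CPM the rise of Ccl2 was 2.45 times in control, still the largest, and 1.94 times in 4E-BP1–cKO cells. Ccl12 rose about as much in the latter (2.0 times). By Fos alone in thinned cells, Ccl2 rose most in control (2.75 times). In 4E-BP1–cKO cells it rose 2.23 times by Fos alone, and Ccl4 rose 2.31 times. In thinned cells Ccl4 had 1.56 times as many UMIs in the highest as in the lowest group of control cells. In 4E-BP1–cKO cells it had 2.08 times as many. Ccl3 had 1.66 and 1.83 times as many. In full-depth CPM these values were 1.21 and 1.78 times for Ccl4 and 1.49 and 1.78 times for Ccl3. The share of thinned cells with Ccl4 was 61.2% in the lowest and 62.0% in the highest control group, and 61.9% and 73.3% in 4E-BP1–cKO cells. For Ccl3 it was 34.3% and 42.3% in control, and 39.0% and 50.9% in 4E-BP1–cKO cells. By Jun alone the rise in thinned cells was smaller, at 1.24 and 1.41 times for Ccl4 and 1.37 and 1.37 times for Ccl3. By Fos alone it was 1.81 and 2.31 times for Ccl4 and 1.85 and 2.02 times for Ccl3. By Fos plus Jun, the thinned values of Ccl12 (1.01 and 1.88 times) and Cxcl10 (1.61 and 0.71 times) differed between the libraries. They rest on 53 and 26 UMIs of Ccl12 in control and 13 and 27 in 4E-BP1–cKO cells. For Cxcl10 these counts were 32 and 25 in control and 19 and 15 in 4E-BP1–cKO cells. For both genes the intervals of the lowest and highest group overlapped in each library. In full-depth CPM of the same groups, Ccl12 was higher in both libraries (1.7 and 2.0 times). Cxcl10 still went in opposite directions (1.6 and 0.8 times). Cxcl2 was lower in the highest than in the lowest group, with 145 UMIs per 1000 control cells in the lowest group and 101 in the highest (0.70 times), and 276 and 155 in 4E-BP1–cKO cells (0.56 times). The 4E-BP1–cKO group with 5 to 7 was nevertheless the highest, at 338. Grouped by Jun alone, Cxcl2 in the highest group was 0.43 times the lowest in control and 0.44 times in 4E-BP1–cKO cells, whereas grouped by Fos alone it was 1.42 and 1.0 times. The Cxcl2 values for Fos plus Jun rest on 62 and 21 UMIs in control and 29 and 18 in 4E-BP1–cKO cells. The intervals of the lowest and highest group overlapped in each library. Cxcl16 was lower in the highest group as well, at 0.54 and 0.78 times the lowest, but by Fos alone it was 0.73 and 1.20 times.

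**Figure D5:**
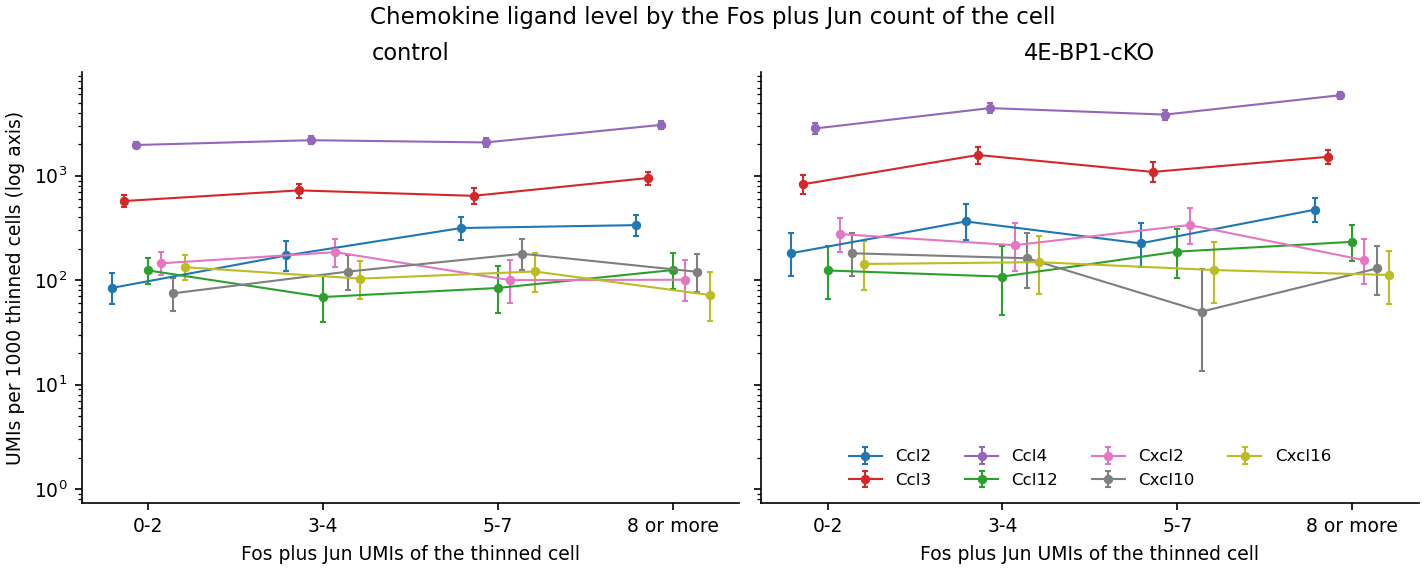
UMIs per 1000 thinned cells (log axis) of 7 of the genes, with exact Poisson intervals, in cells grouped by their Fos plus Jun UMIs, in the control (left) and 4E-BP1–cKO (right) library. Ccl2 in control cells climbs from 84.1 to 337. Cxcl2 is lower in the highest group than in the lowest in both libraries, but the intervals of these groups overlap in each.

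Within each of these groups Ccl4 was higher in 4E-BP1–cKO cells, with ratios of 1.44 (1.26 to 1.65), 2.03 (1.76 to 2.34), 1.85 (1.59 to 2.15) and 1.93 (1.73 to 2.15) from the lowest to the highest. Ccl3 was also higher in each, with ratios from 1.45 to 2.18. The Ccl2 ratio was above 1 by its interval in the lowest groups, at 2.15 (1.17 to 3.85) and 2.12 (1.25 to 3.53), and not in the others, at 0.71 (0.40 to 1.22) and 1.41 (0.97 to 2.03). Cells with high Fos plus Jun were deeper and richer in ribosomal protein RNA, with a median ribosomal share of 4.68% in the highest and 1.57% in the lowest group of control cells. The part of depth and ribosomal share in these differences was not tested.

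Most members were higher in cells with a ribosomal share of 3% or more. In control cells Ccl2 was at 375 CPM in these cells and 117 CPM in the rest, Ccl3 at 1263 and 480 CPM, Ccl4 at 3974 and 1677 CPM and Cxcl2 at 265 and 93.3 CPM. Cxcl16 was the exception, at 129 and 133 CPM in control and 174 and 184 CPM in 4E-BP1–cKO cells. Since 52.4% of 4E-BP1–cKO and 42.7% of control cells had such a share, the libraries were compared within each class. Ccl4 was higher in 4E-BP1–cKO cells in both, with a ratio of 1.62 (1.57 to 1.67) at a high and 1.33 (1.24 to 1.42) at a low ribosomal share, and Ccl3 had ratios of 1.61 (1.53 to 1.70) and 1.40 (1.24 to 1.58). The Cxcl2 ratios were 2.0 (1.79 to 2.22) and 1.48 (1.12 to 1.94), and the Cxcl16 ratios 1.34 (1.13 to 1.60) and 1.38 (1.09 to 1.74). For Ccl2 the ratio was 1.52 (1.38 to 1.68) at a high ribosomal share and 1.18 (0.90 to 1.53) at a low one. Ccl12 had ratios of 1.52 (1.31 to 1.75) and 1.11 (0.83 to 1.46), and Cxcl10 1.27 (1.09 to 1.47) and 0.71 (0.48 to 1.03).

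The ratio also varied with the depth of the cell. Over quartiles of UMIs per cell set on both libraries, the Ccl4 ratio was 1.48, 2.39, 2.93 and 1.25 from the shallowest to the deepest quartile, and each interval lay above 1. The Ccl3 ratio was 1.53, 1.70, 3.03 and 1.31, and that of Ccl2 was 1.98, 0.96, 2.83 and 1.28, with an interval that included 1 in the second quartile. Cxcl2 showed another order, with 1.2, 1.33, 1.88 and 2.12, of which the intervals of the shallower quartiles included 1. The deepest quartile held 68.5% of the Ccl4 UMIs of control and 54.9% of those of 4E-BP1–cKO cells.

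Most other chemokine ligand genes were scarce. Of 25 further ligands, 24 were in the files and 7 had at least 20 UMIs. Against 4.32% and 11.3% of all genes tested, 1 of the 7 was higher and 2 were lower by over 1.5-fold. The higher one was Cxcl1, a neutrophil attractant like Cxcl2, with 1 UMI in control cells and 34 UMIs in 3 4E-BP1–cKO cells, of which 1 cell held 31. The lower ones were Cxcl12, with 95 UMIs in 9 control cells, 69 of them in 1 cell, and 0 in 4E-BP1–cKO cells, and Ccl8, with 29 and 3 UMIs. Ccl6, a relative of Ccl9, had 78.1 and 85.9 CPM, a ratio of 1.10 (0.90 to 1.33). It was above Ccl9 and Ccl7 in level and was found in 17.3% and 21.1% of cells.

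Of 23 chemokine receptor genes, 10 had at least 20 UMIs. Of these, 2 were higher and 2 lower by over 1.5-fold, against 4.32% and 11.3% of all genes tested. Ccrl2, an atypical receptor that binds chemerin, was at 277 CPM in control and 461 CPM in 4E-BP1–cKO cells, a ratio of 1.66 (1.52 to 1.82). Cxcr4, the receptor of Cxcl12, was higher on 14 and 15 UMIs (2.97, 1.34 to 6.64). Ccr6 and Cxcr5 were lower on 58 and 12 and on 58 and 11 UMIs, with intervals that included 1. Cx3cr1, the fractalkine receptor used in the sort, was at 2075 and 1981 CPM. The proteases that shed Cxcl16, Adam10 and Adam17, had ratios of 0.93 (0.83 to 1.03) and 0.96 (0.83 to 1.10).

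Genes that respond to the same signals were described in the same way. Over all genes tested, 4.32% were higher and 11.3% lower by over 1.5-fold. Of 16 immediate early and early response genes 2 were higher, Ier2 (ratio 2.07, 1.92 to 2.23) and the transcription factor gene Egr1 at 1945 and 3011 CPM (1.55), and 0 were lower, with a median log2 ratio of 0.37. Of 9 genes of NF-kappaB and its feedback, 1 was higher, the inhibitor gene Nfkbia at 1302 and 2152 CPM (1.65, 1.59 to 1.72), with a median of 0.18. Of 7 cytokine genes 0 passed 1.5-fold in either direction, with a median of 0.19. The highest ratios were 1.47 (1.35 to 1.61) for Tnf, 1.44 (1.35 to 1.54) for Il1a and 1.28 (1.12 to 1.45) for Il1b. The others were 1.14 for Csf1, 1.09 for Il10, 1.07 for Tgfb1 and 0.73 for Il6, with intervals that included 1. Of 8 interferon-stimulated genes with at least 20 UMIs, Ifi204 was higher (1.76, 1.29 to 2.40). Usp18 was lower on 28 and 3 UMIs (0.30, 0.06 to 0.96), and the median of these genes was −0.24. The lists differ in level and size, and their difference from the chemokine ligands was not tested.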

How the data were processed

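The 2 libraries held sorted spinal microglia, 1 per genotype. The authors deposited UMI counts per gene and barcode, not normalized, made with Cell Ranger count (8.0.1 in the file header) on mm10. The sources used here do not name the annotation release. The filter asked for over 300 genes with a UMI and less than 5% of UMIs from mitochondrial genes, and doublets were not removed. UMIs were summed per library and given as CPM. Ratios carry an exact conditional Poisson interval, shares a Clopper-Pearson interval. Both cover counting error only, since there is 1 library per genotype and the sources used here do not name the number of mice pooled. Cells were thinned without replacement to 872 UMIs, the 10th percentile (seed 11).

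The genes, the related lists and the marker lists were chosen with earlier results of these data known. The genes named are the 9 ligands, Fos, Jun, Eif4ebp1, and the members of the lists that passed 1.5-fold or that relate to a ligand. All listed cytokine genes are named as well, and so are genes with a correlation of at least 0.2 with a ligand in both libraries. The value of 1 receptor gene is not reported here.

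The alternatives were a mitochondrial limit of 10%, at least 500 genes, removal of Scrublet calls (4 control and 11 4E-BP1–cKO cells), removal of the cell with the most UMIs, a CPM total without ribosomal protein and mitochondrial UMIs, TMM factors (edgeR 4.0.16 in R 4.3.3), a pseudocount of 10 CPM, ribosomal classes weighted alike, and thinning. Removal of cells of other types or of the 10 cells with the most chemokine UMIs, and thinned shares by ribosomal class, were added after the data were seen. Scripts used Python 3.11.15, numpy 2.4.6, scipy 1.17.1, pandas 2.3.3 and scanpy 1.11.5, and were tested on simulated data. That simulation drew Poisson counts per library, without clustering of UMIs in cells.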

Additional observations from a re-analysis of the deposited data

Results flagged for a closer look

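Signal outside the cells analysed was seen in the barcodes that the filter removed, of which 69 were control and 29 were 4E-BP1–cKO barcodes. The 9 genes were at 2899 CPM (2590 to 3234) in the removed control barcodes, against 4992 CPM in the kept ones. Among the removed 4E-BP1–cKO barcodes they were at 3062 CPM (2514 to 3694), against 8105 CPM in the kept ones. Both values exceeded the limit that a count of 0 allows, 27.1 and 84.3 CPM. The intervals of the removed barcodes of the 2 libraries overlapped.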

How the results depend on the processing

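All values describe 1 library per genotype, so no alternative speaks to variation between mice, and with 87 and 41 UMIs of Ccl7 and 177 and 51 of Ccl9 the depth did not resolve a ratio for these genes. The log2 ratio was above 0 under all 11 alternatives for 8 of the genes and below 0 under all 11 for Ccl9. For Ccl2, Ccl3 and Ccl4 it passed 1.5-fold under 10 of 11 alternatives and for Cxcl2 under 11. With thinning it was 0.85 for Ccl3, 0.94 for Ccl4, 0.80 for Cxcl2 and 0.21 for Cxcl16, and 5 genes were higher by over 1.5-fold (Ccl12 in addition) and 1 lower (Ccl9), where 9.52% of the 7145 genes tested were higher and 14.4% lower. With ribosomal classes weighted alike it was 0.63 for Ccl3 and 0.62 for Ccl4. With TMM factors it was 0.76 for Ccl4. Without the 10 cells of each library with the most chemokine UMIs it was 0.57 for Ccl3, 0.52 for Ccl4 and 1.39 for Cxcl2, and 3 genes passed 1.5-fold (Ccl2, Ccl7 and Cxcl2). These cells were ranked by the sum of the 9 genes, which was mostly Ccl4 and Ccl3. The control cells removed included cells with 98, 76 and 64 Cxcl2 UMIs. Those removed from the 4E-BP1–cKO library held at most 41, and its cell with 116 stayed. This removal therefore cannot show how far the Cxcl2 ratio rests on few cells. The difference in the share of cells (4E-BP1–cKO minus control) was 10.1 points for Ccl3 and 6.07 points for Ccl4 in thinned cells, 11.04 and 5.81 as the mean over all draws, and 9.71 and 2.49 at the 25th percentile of depth (1658 UMIs). In thinned cells with a low ribosomal share it was 1.68 points for Ccl4 and 1.23 for Cxcl16, and with a high share 11.6 for Ccl3 and 8.14 for Ccl4. Ccl3 was found in 31.4% of control and 35.8% of 4E-BP1–cKO thinned cells with a low ribosomal share. With a high share Cxcl16 was found in 9.48% and 13.4%. The percentage of UMIs in the top cells, recomputed by thinning or for the top 1% or 10% of cells, left the interval of the value reported in 23 control and 24 4E-BP1–cKO cases and stayed in it in 4 and 3, for the other cutoffs by their construction. The genes past 1.5-fold numbered 1618 higher and 3320 lower without a minimum of UMIs, and 58 and 157 with at least 200 UMIs, where fewer genes were tested. The cause of the other differences was not tested. No paired analysis was possible because each genotype had 1 library.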
